A study of Homo sapiens with 8 samples.

Results

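The genes of the NRF2 antioxidant pathway were followed in the human breast cancer line SKBR3, which carries amplified ERBB2 (HER2). The 9 genes were the rows of the deposited table whose symbol equals NFE2L2, KEAP1, NQO1, HMOX1, GCLC, GCLM, TXNRD1, SRXN1 or GPX2, out of 30434 genes in all. RNA sequencing was done on 4 control libraries, whose genotype label is WT, and on 4 libraries of FOXA1 knockdown cells, a stable line made by lentiviral transduction with 3 hairpin RNAs against FOXA1 mRNA. Both groups were SKBR3 cells grown in DMEM with 10% fetal bovine serum, without a drug or oxidant named in the labels. It is not stated whether control cells carried a control virus, whether the knockdown line is 1 clone or a pool, or whether replicates were separate cultures, so p-values measure only the spread between these libraries.

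NRF2, the protein of NFE2L2, is a transcription factor that pairs with small MAF proteins and binds antioxidant response elements in the control regions of its target genes. KEAP1 holds NRF2 in the cytoplasm and brings it to a CUL3 ubiquitin ligase for degradation; oxidants and electrophiles modify KEAP1 and let NRF2 accumulate. The pathway is therefore largely controlled at the level of NRF2 protein, which RNA counts do not measure.

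Most of the target genes were lower in the knockdown, by very different amounts, while the transcript of NRF2 itself did not pass the test (adjusted p 0.472). NQO1 kept 11.3% and GPX2 3.87% of the control level. SRXN1, TXNRD1, KEAP1, HMOX1 and GCLC fell to between 56.2% and 86.0%, and GCLM rose to 161.9%. All 9 genes passed the filter on low counts. Of these, 8 were called at an adjusted p under 0.05 in edgeR's quasi-likelihood test, against 77.1% of all 16430 tested genes. The 7 called lower compare with 37.7% of tested genes called lower, and the 1 called higher with 39.4% called higher. For 8 of the 9 genes the CPM ranges of control and knockdown stayed apart, beside 72.0% of all tested genes. The median log2 fold change was -0.39 for the 9 genes and 0.02 for all tested genes. With so large a share of genes called, a call by itself does not set these genes apart, and the sizes below carry the description.

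**Figure D1:**
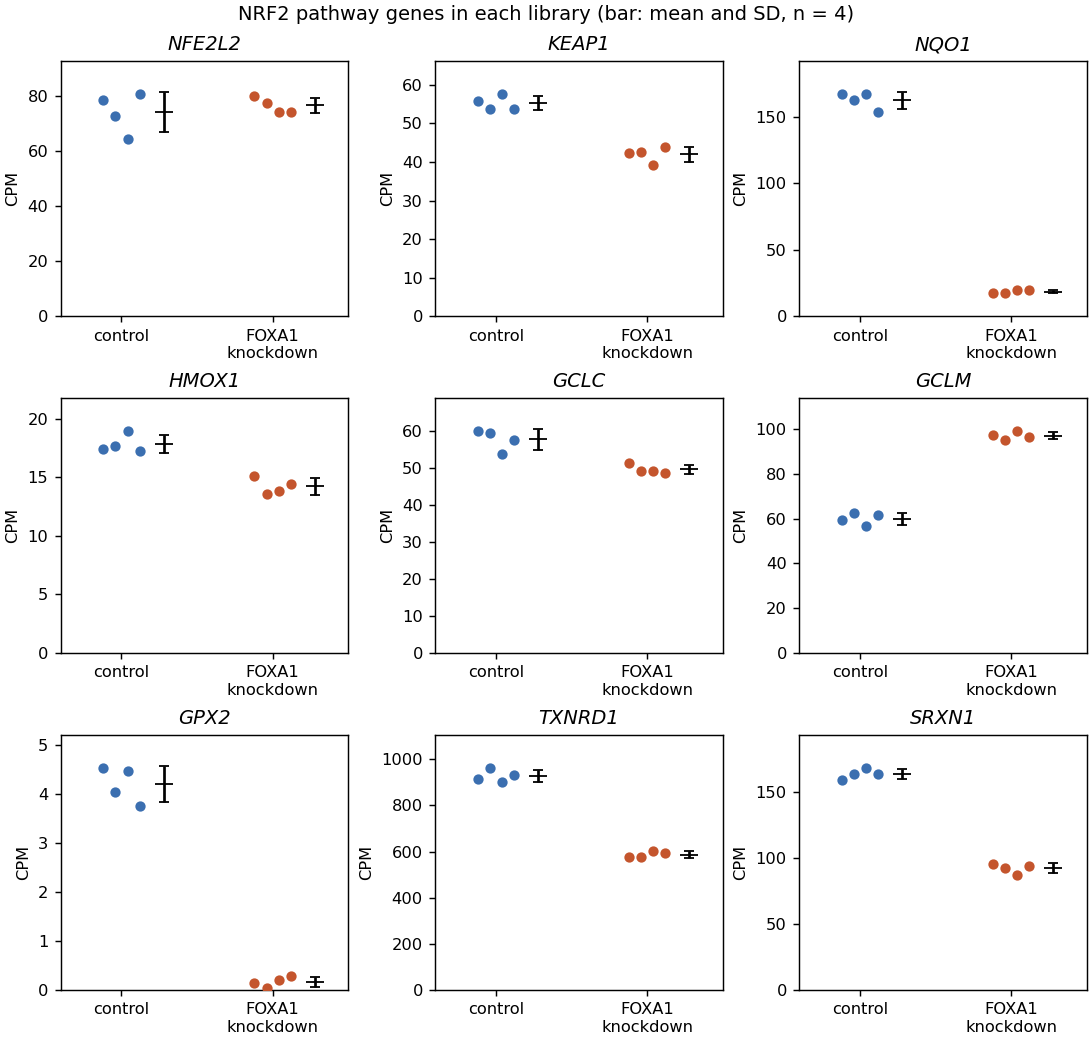
Level of each gene in counts per 1000000 (CPM, vertical axis from 0) in 4 control libraries (blue) and 4 FOXA1 knockdown libraries (orange), with mean and SD beside them. NQO1 and GPX2 drop to near the axis, GCLM alone is higher in knockdown, and the NFE2L2 groups overlap.

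Library totals ran from 19087878 to 23786684 counts, and 3 counts corresponded to between 0.123 and 0.153 CPM. FOXA1 had between 4071 and 4397 counts in control and between 83 and 92 in knockdown libraries. Control replicate 3 differed most from the other controls: chi-square values per degree of freedom over genes were 4.77 to 6.13 in its pairs and 2.17 to 2.37 in the rest. Its effect is given where it changed a result. All 5 markers used to check the SKBR3 label (ERBB2, its neighbour GRB7 and the epithelial keratins KRT8, KRT18 and KRT19) were detected in every library, but they moved between the groups: in knockdown ERBB2 stood at 18.3%, GRB7 at 34.3% and KRT19 at 27.3% of the control level, and KRT8 at 124.4% and KRT18 at 149.5%. Of 5 markers of other cell types, the leukocyte gene PTPRC had at most 3 counts, the endothelial gene PECAM1 at most 6, and the fibroblast gene COL1A2 at most 3. COL1A1 had between 79 and 134 counts, and COL3A1 had at most 1 in control and 90 to 104 in knockdown libraries. Their summed level was 5.04 to 6.70 CPM in control and 8.70 to 8.81 CPM in knockdown, and its part in the results was not tested. In bulk RNA, fewer cells that express a gene and less RNA per cell cannot be told apart.

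Because the rise and the falls concern genes known as NRF2 targets, RefSeq promoter windows on GRCh38.p14 (250 bases before to 50 after each start) were searched on both strands for TGACNNNGC, the core of the antioxidant response element. The table held 11 windows for 8 of the genes and none for HMOX1. A match was found in 5 windows of 4 genes (KEAP1, GCLM, GPX2 and TXNRD1), where 13.3% of all 35116 windows held one. The matches are shown with 10 bases on each side, on the strand of the gene, because the same core lies before genes that changed in opposite directions. Capitals mark the 9 matching bases, which read GCNNNGTCA where the match is on the other strand.
GCLM, 34 bases before the start (chr1:93909446-93909474, minus strand): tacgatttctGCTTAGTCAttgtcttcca
GPX2, 122 bases before the start (chr14:64942849-64942877, minus strand): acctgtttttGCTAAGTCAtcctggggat
TXNRD1, 99 bases before the upstream start (chr12:104215670-104215698, plus strand): acacgggctaTGACTTCGCtgttgtcacc
TXNRD1, 8 bases before the upstream start (chr12:104215761-104215789, plus strand): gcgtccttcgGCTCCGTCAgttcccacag
TXNRD1, 102 bases before the downstream start (chr12:104286920-104286948, plus strand): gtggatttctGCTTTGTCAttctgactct
KEAP1, 54 bases before the downstream start (chr19:10502807-10502835, minus strand): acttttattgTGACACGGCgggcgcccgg
KEAP1, 31 bases before the downstream start (chr19:10502784-10502812, minus strand): gcccggctctGCTTAGTCAtggtgacctg
The GCLM match and the KEAP1 match nearer the start have the same 9 bases. All 9 matching bases lie in annotated exons of GENCODE 29 for the KEAP1 and GPX2 matches and the downstream TXNRD1 match, 1 of them for the GCLM match and the TXNRD1 match nearest the upstream start, and 0 for the remaining TXNRD1 match. The windows of NFE2L2, NQO1, GCLC and SRXN1 did not hold these letters, which says nothing of sites outside the windows. The forkhead cores TGTTTAC and TGTTTGC, searched on both strands, were in none of the 11 windows; 3.42% and 3.89% of all windows held them.

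The regulators were examined first. NFE2L2 (ENSG00000116044.16, chromosome 2, 177227595 to 177392697, minus strand; positions of genes are from GENCODE 29 on GRCh38) stood at 78.6, 72.8, 64.5 and 80.6 CPM in control replicates 1 to 4 and at 80.0, 77.6, 74.3 and 74.3 CPM in knockdown replicates 1 to 4. The groups overlapped, and the lowest value was that of control replicate 3. The log2 fold change was 0.05 (SE 0.0768, edgeR adjusted p 0.472, two-sided exact permutation p = 0.629). Without control replicate 3 the log2 fold change was -0.02. NFE2L2 shares 54 exonic bases with AGPS on the opposite strand, a gene that went from 15.6 to 87.8 CPM, and 1054 exonic bases on its own strand with a transcript that averaged 11.6 counts per library.

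KEAP1, the inhibitor of NRF2 (ENSG00000079999.14, chromosome 19, 10486120 to 10503741, minus strand), had 55.9, 53.8, 57.6 and 53.7 CPM in control and 42.4, 42.6, 39.3 and 43.9 CPM in knockdown. All 4 knockdown libraries lay below all controls. The log2 fold change was -0.39 (SE 0.0419, edgeR adjusted p 3.42e-08). The two-sided exact permutation p was 0.0286, the smallest that 4 against 4 libraries allow. The 50 tested genes nearest to KEAP1 had a median of -0.27, and with that regional shift taken out the log2 fold change of KEAP1 was -0.12 (adjusted p 0.0236 by edgeR). Counted within each library, the number of KEAP1 counts per NFE2L2 count was 0.712, 0.739, 0.892 and 0.666 in control and 0.529, 0.549, 0.529 and 0.591 in knockdown. The groups did not overlap (exact permutation p = 0.0286), and control replicate 3 had the highest ratio.

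NQO1, which reduces quinones to hydroquinones and is a standard readout of NRF2 activity (ENSG00000181019.13, chromosome 16, 69706996 to 69726951, minus strand), had the second-largest fall. Its level was 167.1, 162.8, 167.2 and 153.6 CPM in control and 17.0, 17.5, 19.7 and 19.4 CPM in knockdown. The gap between the groups far exceeded the spread within them. The mean went from 162.7 ± 6.36 to 18.4 ± 1.32 CPM (SD, n = 4 each), with a log2 fold change of -3.15 (SE 0.0592, adjusted p 5.59e-26 by edgeR, exact permutation p = 0.0286). Its 50 nearest tested genes had a median of 0.14, on the other side of 0. NQO1 counts per NFE2L2 count went from 2.22 ± 0.286 to 0.241 ± 0.0257 (SD, n = 4 each; exact permutation p = 0.0286).

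HMOX1 encodes heme oxygenase, which opens the heme ring to give biliverdin, iron and carbon monoxide, and is held back by BACH1 as well as induced by NRF2 (ENSG00000100292.17, chromosome 22, 35380361 to 35394214, plus strand). It stood at 17.4, 17.7, 18.9 and 17.2 CPM in control and 15.1, 13.6, 13.8 and 14.4 CPM in knockdown, without overlap. The log2 fold change was -0.32 (SE 0.0466, adjusted p 6.66e-05 by edgeR, exact permutation p = 0.0286). Genes around it moved the other way, with a median of 0.28, and with the regional shift taken out HMOX1 was at -0.61. The fall of HMOX1, to 79.8% of control, was smaller than that of NQO1, to 11.3%.

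Glutathione is made in a first, rate-limiting step by glutamate-cysteine ligase, whose catalytic subunit is encoded by GCLC and whose modifier subunit, which raises the activity of the enzyme, by GCLM. The genes for the subunits went in opposite directions. GCLC (ENSG00000001084.13, chromosome 6, 53497341 to 53616970, minus strand) had 59.9, 59.3, 53.8 and 57.6 CPM in control and 51.4, 49.2, 49.0 and 48.7 CPM in knockdown, a log2 fold change of -0.22 (SE 0.0392, adjusted p 0.000117 by edgeR, exact permutation p = 0.0286). Control replicate 3 came closest to the knockdown libraries, and the groups did not overlap. With the regional shift taken out GCLC was at -0.38.

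GCLM (ENSG00000023909.10, chromosome 1, 93885205 to 93909456, minus strand) had 59.3, 62.7, 56.6 and 61.6 CPM in control and 97.7, 95.2, 99.3 and 96.7 CPM in knockdown. Every knockdown library was above every control. The log2 fold change was 0.69 (SE 0.0353, adjusted p 5.40e-14 by edgeR, exact permutation p = 0.0286), and 0.50 with the regional shift taken out. GCLM counts per GCLC count were 0.991, 1.06, 1.05 and 1.07 in control and 1.902, 1.94, 2.02 and 1.99 in knockdown (mean 1.04 ± 0.0351 and 1.96 ± 0.0538, SD, n = 4 each; exact permutation p = 0.0286). This ratio needs no scaling between libraries, and leaving out any 1 library kept the knockdown mean between 1.85 and 1.902 times the control mean.

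**Figure D2:**
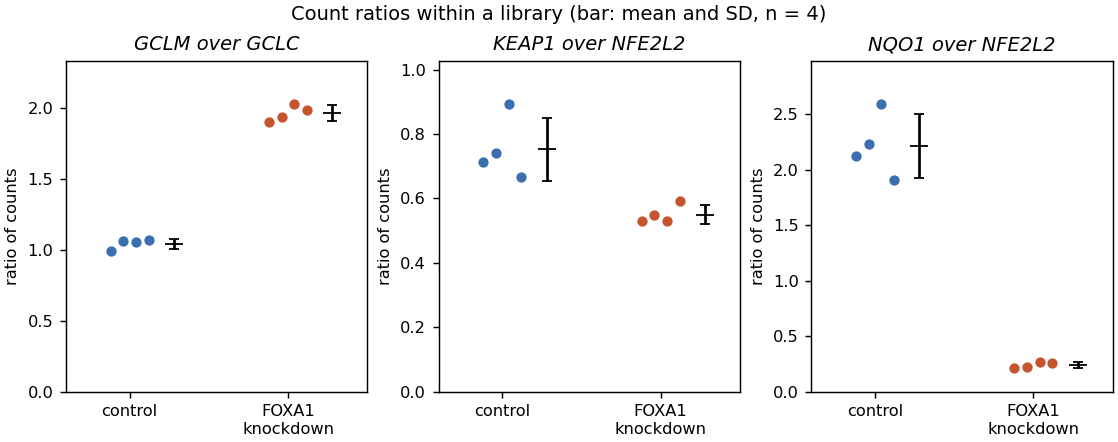
Ratios of raw counts of 2 genes within each library (vertical axes from 0), in 4 control (blue) and 4 FOXA1 knockdown libraries (orange), with mean and SD beside them. GCLM over GCLC moves from near 1.04 to near 1.96, and the KEAP1 and NQO1 ratios to NFE2L2 are lower in knockdown without overlap.

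GPX2, a selenium-containing glutathione peroxidase of epithelial cells that removes hydrogen peroxide (ENSG00000176153.12, chromosome 14, 64939152 to 64942905, minus strand), had the lowest counts of the 9 genes. It had 99, 89, 94 and 87 counts in control and 3, 1, 4 and 6 in knockdown. The knockdown libraries were thus close to the floor of 3 counts, replicate 2 below it, replicate 1 at it and the other two above. The level went from 4.197 ± 0.370 to 0.162 ± 0.102 CPM (SD, n = 4 each), with a log2 fold change of -4.69 (SE 0.505, adjusted p 1.42e-14 by edgeR, exact permutation p = 0.0286). With only 14 counts in the knockdown libraries together, the ratio of control to knockdown was 26.7, with an exact 95% interval of 15.7 to 49.3 that covers counting error only.

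TXNRD1 and SRXN1 serve the thioredoxin branch of the pathway. TXNRD1, a selenoprotein that reduces thioredoxin with NADPH (ENSG00000198431.16, chromosome 12, 104215779 to 104350305, plus strand), had the highest level of the 9 genes. It stood at 913.1, 963.9, 902.4 and 934.7 CPM in control and 574.9, 574.8, 601.7 and 595.1 CPM in knockdown, with no overlap. The log2 fold change was -0.66 (SE 0.027, adjusted p 1.01e-15 by edgeR, exact permutation p = 0.0286), and the surrounding genes had a median of 0.25.

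SRXN1 encodes sulfiredoxin, which restores overoxidised peroxiredoxins (ENSG00000271303.2, chromosome 20, 646615 to 653370, minus strand). Its level was 159.4, 164.0, 168.5 and 163.7 CPM in control and 95.6, 92.4, 86.9 and 93.6 CPM in knockdown. The groups lay well apart, with a log2 fold change of -0.83 (SE 0.0337, adjusted p 2.07e-16 by edgeR, exact permutation p = 0.0286). SRXN1 shares 2292 exonic bases with a gene on the same strand that averaged less than 1 count per library.

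**Figure D3:**
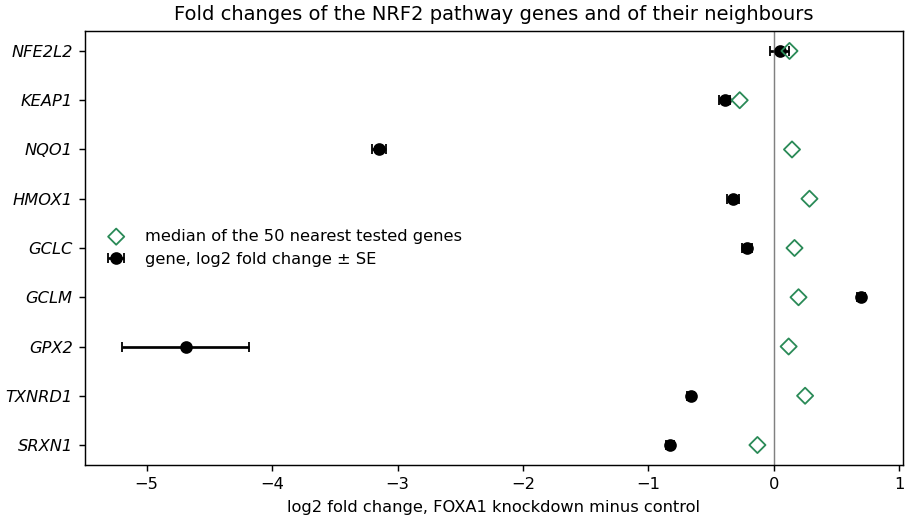
Log2 fold change of each gene (black, bars are SE; horizontal axis, knockdown minus control) and the median of its 50 nearest tested genes (green diamonds). Neighbour medians lie between -0.27 and 0.28, while NQO1 and GPX2 lie at -3.15 and -4.69; only for KEAP1 does the neighbour median cover most of the change among the 8 called genes.

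Fold changes of whole chromosome regions differed in these cells, so the neighbours of each gene were read beside it. The neighbour median was positive for NFE2L2, NQO1, HMOX1, GCLC, GCLM, GPX2 and TXNRD1, and negative for KEAP1 and SRXN1. With the regional shift taken out, the same 7 genes were lower and GCLM higher, each past the threshold, and NFE2L2 was at -0.08 (adjusted p 0.230 by edgeR).

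**Figure D4:**
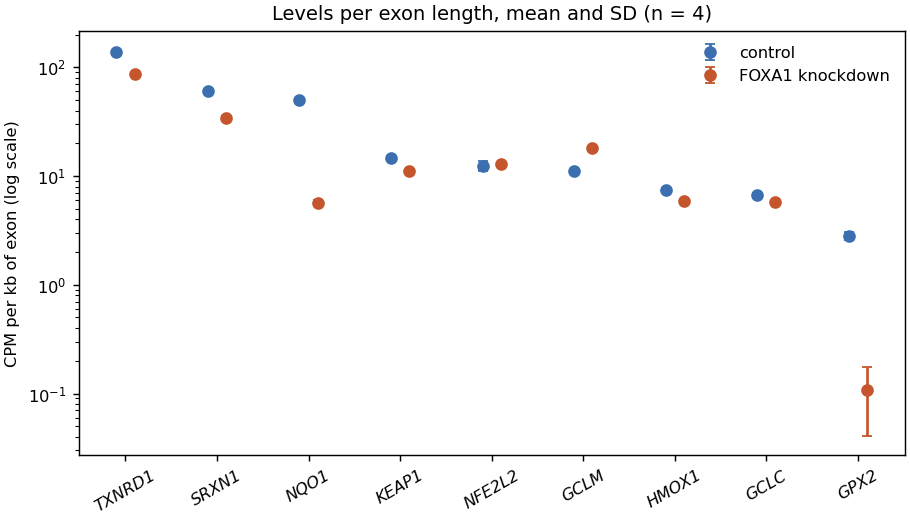
CPM per kilobase of exon (vertical axis, log scale) of the 9 genes ordered by control level, mean and SD of 4 control (blue) and 4 FOXA1 knockdown libraries (orange). TXNRD1 stays highest and GPX2 lowest, while NQO1 goes from 49.99 to 5.65.

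Levels of different genes were compared per kilobase of annotated exon. In control the order was TXNRD1 at 138.4 CPM per kb, SRXN1 at 60.7, NQO1 at 49.99, KEAP1 at 14.7, NFE2L2 at 12.4, GCLM at 11.1, HMOX1 at 7.41, GCLC at 6.67 and GPX2 at 2.80. Of neighbours in that order, NFE2L2 and GCLM overlapped between libraries and the others did not. In knockdown TXNRD1 (87.4) and SRXN1 (34.1) still led. GCLM moved up to 17.9, ahead of NFE2L2 at 12.8 and KEAP1 at 11.2. HMOX1 at 5.91, GCLC at 5.73 and NQO1 at 5.65 could not be ordered, since each overlapped the next, and GPX2 was last at 0.108. Exon length here is the union of all annotated transcripts, so the order depends on which transcripts the cells make.

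The NFE2L2 profile over the 8 libraries was set against the other 8 genes and 83 tested genes of a wider antioxidant list. The nearest profiles, by the root mean square difference of log2 CPM after centring each gene, were those of PRDX3 (0.0955), MAFG (0.117) and BACH1 (0.119). PRDX3 is a mitochondrial peroxiredoxin, MAFG a small MAF partner of NRF2, and BACH1 a repressor at the same elements. Their log2 fold changes were -0.06, 0.01 and -0.14. With the regional shift taken out they were -0.13, 0.32 and -0.24, each past the threshold (adjusted p 0.000957, 1.94e-07 and 0.00069 by edgeR). Choosing genes near a profile that differed little between the groups favours small changes, so their size is no separate result. BACH1 was called lower (edgeR adjusted p 0.0292), while NFE2L2 was not called. The BACH1 groups overlapped, with 28.2 to 33.5 CPM in control and 26.7 to 30.1 CPM in knockdown (exact permutation p = 0.114). At a threshold of 0.01 BACH1 would not be called.

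The wider list held 92 further genes of antioxidant defence in 8 roles, of which 91 were in the table and 83 were tested. BACH2, GPX1, GSTA1, GSTM1, AKR1C2, AKR1C3, ALDH3A1 and UGT1A6 were below the filter. In knockdown 45 genes (54.2%) were called lower, beside 37.7% of all tested genes, and 30 (36.1%) higher, beside 39.4%. The median log2 fold change was -0.18, beside 0.02 for all tested genes. A fall of at least 2-fold was called for 16 and a rise for 10, where 13.4% and 14.9% of all tested genes had these. The list thus held genes that rose and genes that fell in every role. For the genes picked below by fold change in each role, the edgeR adjusted p did not exceed 3.97e-06.

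**Figure D5:**
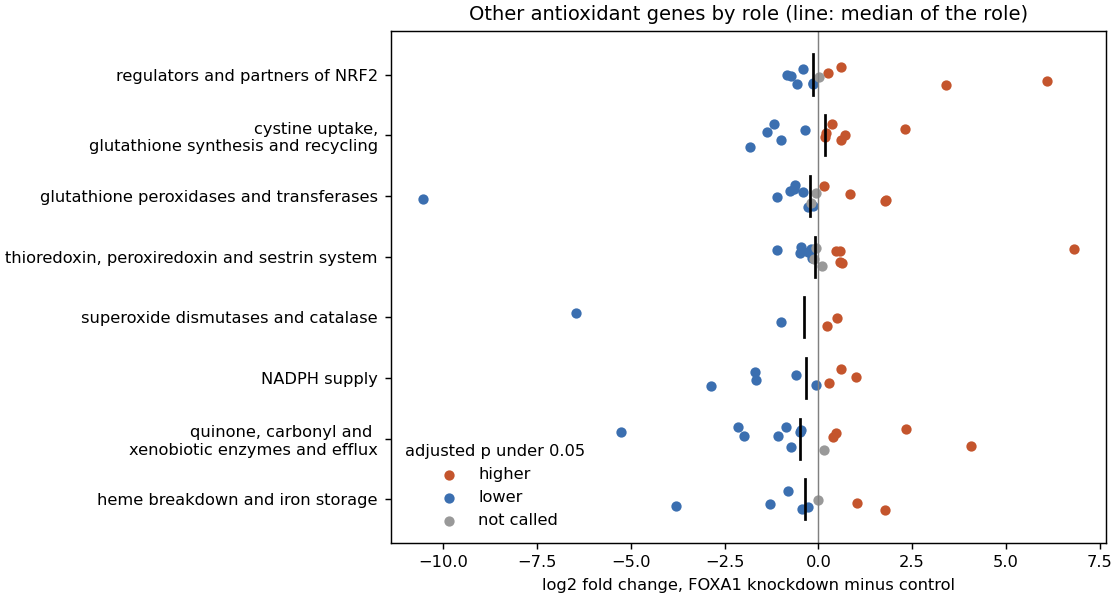
Log2 fold change (horizontal axis, knockdown minus control) of 83 tested antioxidant genes by role; points are genes, coloured by call, and black lines are role medians. Each role holds genes called higher and genes called lower; the point near -10.5 is GSTP1, at 0 counts in knockdown, whose fitted value depends on the prior count.

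Among regulators and partners of NRF2, 4 of 11 tested genes rose and 6 fell. NFE2L3, a relative of NRF2, rose from 6.61 ± 1.01 to 70.4 ± 1.72 CPM (SD, n = 4 each), with a log2 fold change of 3.41. RBX1, the RING subunit of the CUL3 ligase, rose by 0.60 on the log2 scale. CUL3 itself went the other way, with a log2 fold change of -0.40 (edgeR adjusted p 6.80e-10). The small MAF genes MAFK and MAFF had log2 fold changes of -0.83 and -0.73.

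In cystine uptake, glutathione synthesis and recycling, 6 of 11 genes rose and 5 fell. The subunits of the cystine transporter went apart: SLC7A11, the transporting one, rose from 7.12 ± 1.21 to 11.7 ± 0.681, CPM and its chaperone SLC3A2 fell from 615.5 ± 17.5 to 237.4 ± 3.88 CPM (SD, n = 4 each). SLC3A2 also serves other amino acid transporters. The cytosolic glutaredoxin GLRX rose by 2.31 on the log2 scale, and GLRX2 had a log2 fold change of -1.17.

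Of 14 tested glutathione peroxidases and transferases, 4 rose and 8 fell. GSTP1, a transferase that couples glutathione to electrophiles, had 184, 165, 179 and 210 counts in control libraries and none in any of the 4 knockdown libraries, which makes it at least 54.8-fold lower against a floor of 3 counts per library. The secreted peroxidase GPX3 had a log2 fold change of -1.09. GSTA4 rose from 3.59 ± 0.241 to 12.6 ± 1.41 CPM and GPX8 from 1.08 ± 0.138 to 3.69 ± 0.430 CPM (SD, n = 4 each).

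In the thioredoxin, peroxiredoxin and sestrin system, 5 of 14 genes rose and 6 fell. PRDX1, an abundant cytosolic peroxiredoxin repaired by sulfiredoxin, fell from 1249.7 ± 35.6 to 579.7 ± 13.2 CPM (SD, n = 4 each), with a log2 fold change of -1.11, beside those of SRXN1 (-0.83) and TXNRD1 (-0.66). The other peroxiredoxin genes were mixed. PRDX2, PRDX5 and PRDX6 were called higher, at 0.57, 0.57 and 0.46 on the log2 scale, PRDX4 was called lower at -0.47, and PRDX3 was not called. TXN, the substrate of TXNRD1, was at -0.48 and, with the regional shift taken out, at -0.08 (adjusted p 0.0572 by edgeR), which ends its call. SESN3 rose from 0.351 ± 0.117 to 40.2 ± 1.61 CPM (SD, n = 4 each) and SESN2 by 0.63 on the log2 scale. The size of the SESN3 rise rests on few control counts: 4, 10, 8 and 9 in control replicates 1 to 4.

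Of the superoxide dismutases and catalase, 2 rose and 2 fell. The intracellular dismutases SOD1 and SOD2 rose by 0.50 and 0.24 on the log2 scale. The secreted SOD3 had 121, 104, 132 and 118 counts in control and 1, 0, 2 and 2 in knockdown; the ratio of control to knockdown was 96.1, with an exact 95% interval of 40.9 to 297.5 for counting error. CAT, the peroxisomal enzyme that splits hydrogen peroxide, fell from 86.7 ± 2.19 to 43.5 ± 2.21 CPM (SD, n = 4 each).

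NADPH supplies the electrons for glutathione and thioredoxin reduction, and 5 of the 8 genes of its supply fell and 3 rose. The malic enzyme gene ME1 fell from 80.7 ± 2.71 to 11.1 ± 1.37 CPM and the mitochondrial isocitrate dehydrogenase gene IDH2 from 304.1 ± 13.0 to 94.5 ± 1.54 CPM (SD, n = 4 each). The cytosolic IDH1 rose by 0.28 and PGD, of the pentose phosphate pathway, by 0.61 on the log2 scale.

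Among 13 tested enzymes and pumps for quinones, carbonyls and foreign compounds, 8 fell and 4 rose. The efflux pump ABCC3 fell from 37.9 ± 1.96 to 0.980 ± 0.223 CPM and the epoxide hydrolase EPHX1 from 123.0 ± 3.20 to 27.8 ± 0.407 CPM (SD, n = 4 each). The aldo-keto reductase AKR1B10 rose by 2.35 and NQO2, the relative of NQO1, by 0.47 on the log2 scale. NQO2 was at 0.17 with the regional shift taken out (adjusted p 0.0427 by edgeR).

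Of 8 genes listed under heme breakdown and iron storage, 5 fell and 2 rose. BLVRA, which turns the biliverdin made by heme oxygenase into bilirubin, fell from 36.5 ± 1.62 to 2.65 ± 0.604 CPM (SD, n = 4 each), with a log2 fold change of -3.80 beside -0.32 for HMOX1. The heme transporter SLC48A1 had a log2 fold change of -1.28. FECH makes heme by inserting iron into protoporphyrin and so belongs to heme synthesis rather than breakdown. It rose from 57.3 ± 1.83 to 195.3 ± 4.55 CPM, and FTL, the ferritin light chain, from 50.9 ± 3.16 to 104.2 ± 2.79 CPM (SD, n = 4 each). The ferritin heavy chain gene FTH1 stood at 332.2 CPM in both groups and was not called (edgeR adjusted p 0.995). With the regional shift taken out FTH1 was at 0.23 on the log2 scale (adjusted p 3.46e-05 by edgeR).

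Whether counting used strand is not given in the sources used here. MAFK, CUL3, GLRX2, PRDX1, PRDX2, SOD2, EPHX1, SLC48A1, SLC7A11, IDH1, FTH1 and SESN3 share exonic bases with a gene on the opposite strand. NQO2 and BACH1 share them with a gene on each strand, and MAFG with genes on both strands, among them SIRT7 on its own. The counts of all these genes are uncertain, and the counts of the sharing genes differed widely. The opposite-strand gene averaged 1089.9 counts per library for GLRX2 (itself 1200.3) and 2.25 for IDH1 (itself 2343.8). NQO1 shares 575 exonic bases with an opposite-strand gene that averaged 1.75 counts. GCLC shares 529 with a same-strand gene that averaged 1.13 counts. FTL, TXN and PRDX1 have processed pseudogenes and AKR1B10 close paralogues that could take part of their reads. With the regional shift taken out, MAFK was at -0.50 and SOD2 at 0.11 on the log2 scale.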

How the data were processed

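RNA from 4 control and 4 FOXA1 knockdown libraries was sequenced as paired reads of 101 bases, per the labels' protocols. Per the file header, the deposited table gives raw counts for each gene with Ensembl identifiers and symbols. FastQC, Salmon 1.9, DESeq2 3.16 and the build hg38 are named in the submitters' processing notes, without role or order; annotation, use of strand and rounding are not given in the sources used here. Columns were matched to samples by name.

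Counts were analysed in R 4.3.3 with edgeR 4.0.16: filterByExpr (minimum 10 counts, total 15; 16430 of 30434 genes kept), TMM factors of 0.965 to 1.04, quasi-likelihood test with robust estimation, and Benjamini-Hochberg adjustment over all tested genes, threshold 0.05. CPM is the count per 1000000 of the TMM-scaled total. Standard errors come from log2 CPM with 0.5 added to each count. Exact permutations ran over 70 divisions of the libraries. Where a symbol had several identifiers, that with most counts was used. The test was checked on simulated counts in which most genes did not change. That check does not cover data in which most tested genes are called, as here.

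The genes, lists, motifs and alternatives were chosen with earlier results of these data known. Named genes of the wider list are, in each role, up to 2 called genes with the largest log2 fold change in each direction and a mean of at least 50 counts, plus the 3 nearest to NFE2L2. CUL3 was added beside RBX1, PRDX2, PRDX4, PRDX5 and PRDX6 beside PRDX1, and FTH1 beside FTL, after the results were seen. Alternatives were RLE and library-size scaling, other filters, DESeq2 1.42.0, a replicate block, a threshold of 0.01, leaving out each library, and an offset for the median of the 50 nearest tested genes on GENCODE 29, which matched 96.5% of identifiers. Count ratios were added after the counts were seen. Figures used Python 3.11.15 and matplotlib 3.10.9.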

Additional observations from a re-analysis of the deposited data

Results flagged for a closer look

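Single libraries were compared with the other 3 of their group by Dixon's ratio, the distance to the closest library over the range of the group, at its 95% critical value. Of 88 groups tested, 3 exceeded it, and chance would give about 4.4. None of them concerned the 9 genes themselves. In control replicate 3, SLC7A11 was low (5.32 CPM against 7.60 to 7.81 in the other controls, ratio 0.917), and so was IDH1 (90.0 CPM against 96.6 to 97.95, ratio 0.832). In knockdown replicate 4, FECH was high (202.1 CPM against 192.2 to 193.6, ratio 0.866).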

How the results depend on the processing

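Of the 9 genes, the 7 lower and 1 higher kept their direction and call under each alternative in which they were tested; GPX2 was not tested when a mean of 50 counts was required, which left 6 lower. NFE2L2 was not called under any alternative (adjusted p 0.0681 to 0.694). It went from 0.046 to -0.0776 with the regional shift removed and to -0.0186 without control replicate 3; leaving out each library gave -0.0186 to 0.0825. With library size only, it was at 0.13. With the replicate block, the 9 genes again gave 7 lower and 1 higher, and over all tested genes 6091 were lower and 6362 higher, against 6200 and 6475; no call among the 9 genes changed. Same-numbered libraries did not deviate together (correlations of their deviations between -0.03 and 0.06), so the numbers were not taken as pairs. DESeq2 called 5908 lower and 6150 higher. Over all alternatives the wider list gave 39 to 45 lower and 27 to 31 higher. Among the genes of the wider list picked by fold change, TXN lost its call with the regional shift removed (-0.08, adjusted p 0.0572 by edgeR). Low counts limit GPX2, SOD3 and GSTP1 in knockdown, and SESN3 in control.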
